A study of Mus musculus with 82 samples.

Results

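The 39 Hox genes of the mouse lie in 4 clusters, Hoxa with 11 genes, Hoxb with 10, Hoxc with 9 and Hoxd with 9, and were taken by symbol from the 24755 curated RefSeq genes of the GRCm38 annotation. Hox genes encode homeodomain transcription factors that set position along the head-to-tail axis of the embryo, and within a cluster they are switched on in their order along the chromosome. In embryonic stem (ES) cells the clusters are known as classic targets of Polycomb repression, in which PRC1 and PRC2 mark the chromatin of genes that are held silent, and the MLL complexes maintain their expression later in development. Nascent RNA of V6.5, an established line of mouse ES cells, was measured by 3 nuclear run-on assays in which elongating RNA takes up a click-reactive nucleotide. AGTuC ran on bulk nuclei opened with the detergent sarkosyl (2 libraries), inAGTuC ran on pools of intact nuclei (4 libraries), and scGRO-seq ran on single nuclei (labelled scGROseq, 2512 cells that passed the filters, from the 10 batches that a figure of the study names). No genotype or treatment separated the groups. All AGTuC libraries came from 1 experiment that held no other assay, so that assay and batch cannot be told apart there.

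The values are unique molecules (UMIs), each placed at the 3′ end of its RNA, where the polymerase stood. AGTuC held 2231837 and 4755740 UMIs, inAGTuC 623265 to 1462003 a library, and scGRO-seq 223119 to 4928371 a batch. A count of 0 over all AGTuC libraries allows a level of up to 0.429 UMIs per 1000000 UMIs of the assay (3 UMIs; the unit is written UPM from here on), and this limit, like the intervals below, covers counting error only. Markers of ES cells summed to 1394 to 1459 UPM in AGTuC, 387.8 to 800.9 in inAGTuC and 307.4 to 1264 in scGRO-seq. Markers of fibroblasts or feeder cells summed to 16.1 to 19.98, 24.05 to 43.3 and 13.9 to 57.02, with 5 of 9 at 0 in AGTuC and none at 0 in the other assays. Whether feeder cells add to the Hox values was not tested. Neural markers summed to 103.95 to 116.3 UPM in AGTuC, 19.93 to 31.6 in inAGTuC and 7.48 to 58.3 in scGRO-seq, mesoderm markers to 11.6 to 12.5, 6.09 to 17.6 and 0 to 22.3, and endoderm markers to 24.6 to 25.02, 18.6 to 49.9 and 11.1 to 53.3. Replicate 3 of inAGTuC stood apart in its strand balance: 52.4% of its molecules in genes were antisense, against 19.1% to 32.2% in the other inAGTuC libraries and 16.5% and 16.7% in AGTuC. Its part in the differences below was not tested beyond the values given without it.

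The 4 miRNAs below, of 2 families, are shown because they are Hox cluster RNAs that silence other RNAs. In addition, 1 locus of miR-196a lies upstream of Hoxb9, in a transcribed stretch described below. The mature sequences come from RefSeq (GRCm38.p6) and the capitals mark the seed, bases 2 to 8.
miR-196a-5p: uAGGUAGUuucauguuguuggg
miR-196b-5p: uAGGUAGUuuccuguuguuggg
miR-10a-5p: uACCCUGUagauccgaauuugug
miR-10b-5p: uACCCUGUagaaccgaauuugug
miR-196a-5p is encoded in both the Hoxb cluster (chr11:96265187-96265208) and the Hoxc cluster (chr15:102973365-102973386), and miR-196b-5p in the Hoxa cluster (chr6:52230129-52230150, minus strand). miR-10a-5p lies in Hoxb (chr11:96317186-96317208) and miR-10b-5p in Hoxd (chr2:74726074-74726096). The members of each family share their seed across clusters. Of these 5 loci, only the hairpin of Mir196a-1, in Hoxb, held sense UMIs, 3 in AGTuC and 2 in inAGTuC.

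Promoter sequence was found in the RefSeq table for 22 of the 39 genes. The promoters of Hoxd1 and Hoxb8 and that of Halr1, a long non-coding RNA gene beside the Hoxa cluster, are shown with each CG pair in capitals, since CG-rich promoters are a known feature of Polycomb targets. Each window runs from 250 bases before to 50 bases after the annotated start. The first belongs to Hoxd1 (chr2:74762730-74763029, plus strand), the gene with most of its AGTuC signal near its start among the 3 Hox genes with 10 or more UMIs there. The second belongs to Hoxb8 (chr11:96281655-96281954, plus strand), which in AGTuC stayed near 0 just after the most transcribed member of that assay. The third belongs to Halr1 (chr6:52102699-52102998, plus strand).
Hoxd1 promoter: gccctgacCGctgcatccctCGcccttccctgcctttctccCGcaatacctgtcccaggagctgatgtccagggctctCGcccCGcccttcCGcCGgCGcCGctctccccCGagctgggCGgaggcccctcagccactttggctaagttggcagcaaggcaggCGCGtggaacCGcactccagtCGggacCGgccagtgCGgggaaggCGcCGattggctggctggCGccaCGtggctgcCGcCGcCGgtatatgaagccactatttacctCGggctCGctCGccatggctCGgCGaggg
Hoxb8 promoter: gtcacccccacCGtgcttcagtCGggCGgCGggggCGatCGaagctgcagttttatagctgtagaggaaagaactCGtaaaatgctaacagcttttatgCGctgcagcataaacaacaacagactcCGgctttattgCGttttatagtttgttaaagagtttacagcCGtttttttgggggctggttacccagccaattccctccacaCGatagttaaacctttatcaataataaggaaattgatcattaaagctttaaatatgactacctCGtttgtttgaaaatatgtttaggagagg
Halr1 promoter: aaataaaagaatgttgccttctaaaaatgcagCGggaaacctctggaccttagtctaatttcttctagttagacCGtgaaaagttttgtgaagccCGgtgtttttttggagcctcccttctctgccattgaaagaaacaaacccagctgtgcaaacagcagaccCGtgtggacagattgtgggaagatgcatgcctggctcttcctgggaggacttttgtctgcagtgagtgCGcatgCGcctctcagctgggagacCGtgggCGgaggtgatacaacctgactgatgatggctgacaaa
The Hoxd1 window held 29 CG pairs, a number reached by 12.9% of all 32851 promoter windows. Hoxb8 held 13 (37.9% of windows held as many) and Halr1 held 8 (48.6%). The median over the 24 windows of Hox genes was 14.5, with a range of 4 to 45, against a median of 7 over all windows. The letters TATAAA, searched on both strands, were found in 4 of the 24 Hox windows (16.7%), Hoxb8 among them, and in 13.6% of all windows.

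In AGTuC the Hox genes gave 1 high member, Hoxb9, and were otherwise near 0. Summed over the 39 genes there were 472 sense UMIs (471 counting molecules of overlapping genes once), of which 388 (82.2%) lay in Hoxb9. Of these genes 12 were at 0, 32 held at most 3 UMIs, and 3 held 10 or more: Hoxb9, Hoxd1 with 19 and Hoxa3 with 16. The median gene had a level of 0.0386 sense UPM per kb, against 0.308 over all genes. In inAGTuC the sum over the 39 genes was 229 sense UMIs (210 counting such molecules once). There 1 gene was at 0, and the median level was 0.227 against 0.299 over all genes. In scGRO-seq the sum was 463 (448 counting such molecules once), 1 gene was at 0, and the median was 0.149 against 0.244. In these 2 assays no single gene dominated: the highest was Hoxa3 in inAGTuC, with 38 UMIs (16.6% of the sum), and Hoxd3 in scGRO-seq, with 63 (13.6%).

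**Figure D1:**
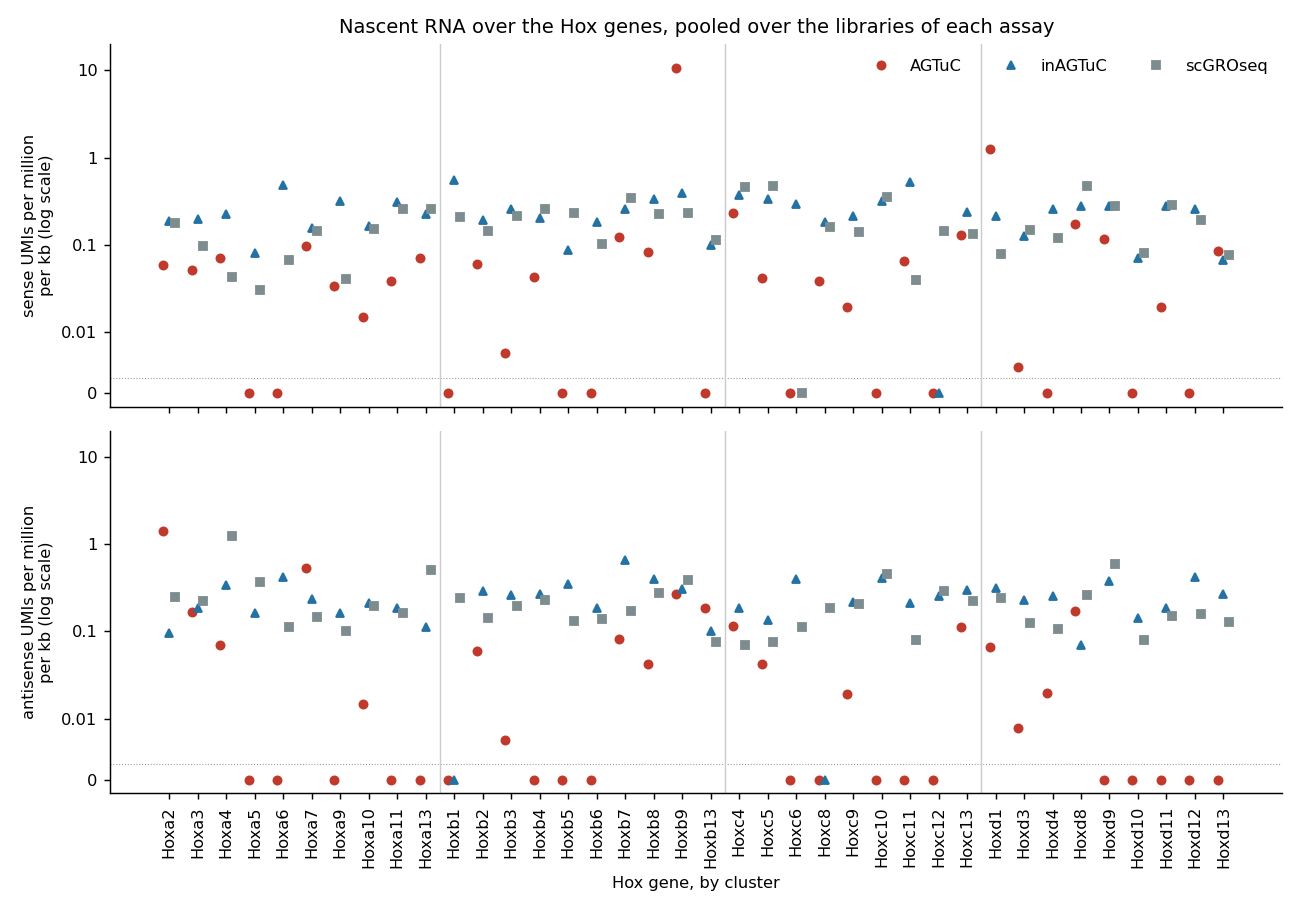
Level of the Hox genes (sense above, antisense below) in UPM per kb on a log scale, pooled over the libraries of an assay, with genes at 0 drawn under the dotted line. In AGTuC the circle of Hoxb9 stands at 10.5 and 12 genes lie at 0 on the sense strand, while the triangles of inAGTuC and squares of scGRO-seq mostly lie in 1 band around 0.1 to 0.5.

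Hoxb9, a posterior gene active in the embryo's trunk and tail, held 137 and 251 sense UMIs in the 2 AGTuC libraries, or 61.4 and 52.8 UPM. The 4 inAGTuC libraries held 2, 0, 3 and 4, or 3.21, 0, 2.05 and 2.75 UPM. The 10 scGRO-seq batches ranged from 0 to 5.49 UPM with a median of 1.50. Both AGTuC libraries lay far above every library of the other assays. Pooled, Hoxb9 reached 10.5 UPM per kb in AGTuC, above 97.7% of all genes, but stood above only 57.03% of genes in inAGTuC and 48.4% in scGRO-seq. The AGTuC molecules stood at 297 positions, and the fullest 50 bp held 38 of them (9.79%), so the level did not come from 1 position.

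The sense signal did not begin at the annotated Hoxb9 start (chr11:96271330-96276595, plus strand). In AGTuC the plus strand held 0.186 UPM per kb over the 20 kb before Gm53, a long non-coding RNA gene upstream. It held 3.78 over Gm53 and 13.7 from the Gm53 end to the Hoxb9 start. It reached 37.1 in the last 2 kb before Hoxb9 and 25.4 in its first 2 kb, then dropped to 1.45 in the rest of the gene and 0.459 between Hoxb9 and Hoxb8. Mir196a-1 lies between Gm53 and Hoxb9, in the 1-kb bin from -7 to -6 kb of the Hoxb9 start. That bin held 3.43 UPM in AGTuC, far under the last 2 kb before Hoxb9. Molecules that began upstream and molecules that began at the Hoxb9 start cannot be told apart, since only the 3′ end is placed.

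**Figure D2:**
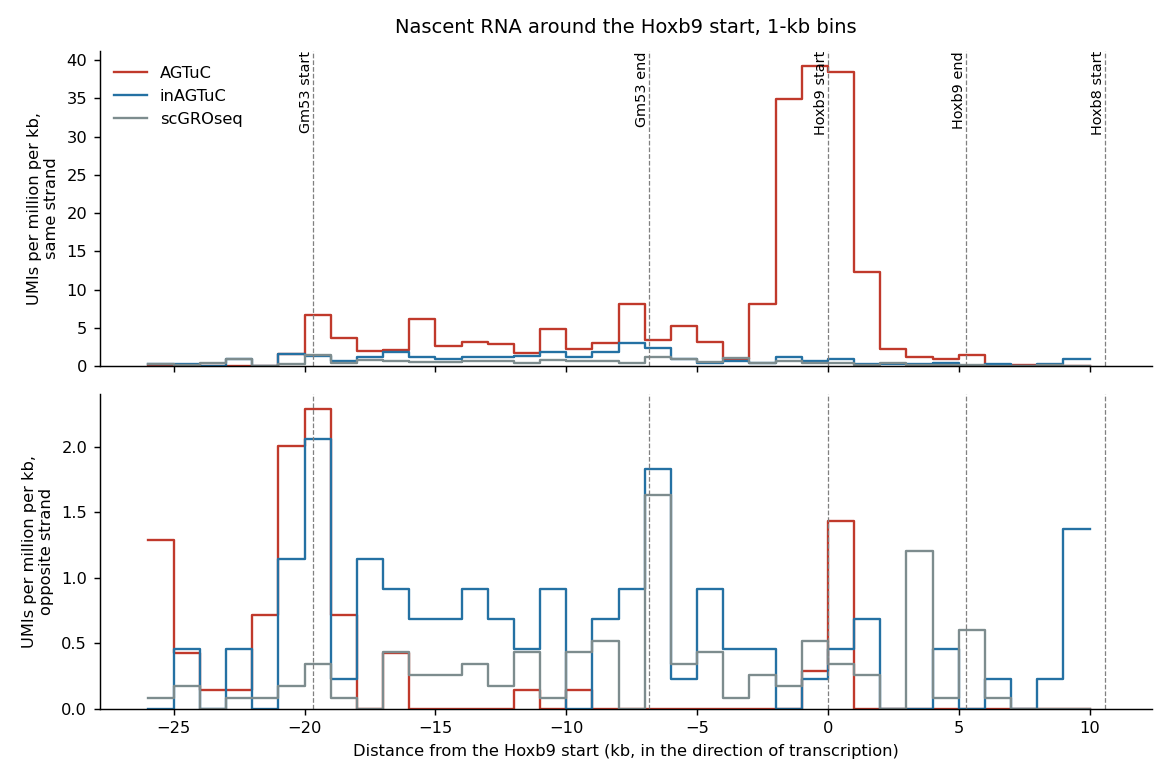
Nascent RNA in 1-kb bins (UPM per kb, pooled over the libraries of an assay) by distance in kb from the Hoxb9 start, on the strand of Hoxb9 (above) and the opposite strand (below). The AGTuC line holds 34.9 to 39.2 in the 3 bins from 2 kb before to 1 kb after the Hoxb9 start, and the other assays stay low.

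The stretch between Gm53 and Hoxb9 was lower in every library and batch of the other assays. From the Gm53 end to the Hoxb9 start the AGTuC libraries held 98.1 and 91.7 UPM. The inAGTuC libraries held 1.60, 13.4, 6.16 and 4.81, and the scGRO-seq batches 0 to 40.3 with a median of 5.19. Over Gm53 itself the AGTuC libraries held 49.3 and 48.2 UPM, the inAGTuC libraries 11.2, 35.3, 23.9 and 5.50, and the scGRO-seq batches 3.65 to 85.2 with a median of 6.98. Over Gm53 both AGTuC libraries lay above all inAGTuC libraries and above every scGRO-seq batch except the smallest (Exp156, 19 UMIs), but Gm53 was not called between AGTuC and inAGTuC (log2 difference 1.27, SE 0.87, limma-moderated adjusted p = 0.232).

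The other Hoxb genes were low in AGTuC. Hoxb8 to Hoxb1, downstream of Hoxb9, and Hoxb13, upstream of it, together held 8 sense UMIs, with 4 of these 9 genes at 0 (Hoxb1, Hoxb5, Hoxb6 and Hoxb13). Per kb this came to 0.0242 UPM, against 1.08 for the cluster with Hoxb9 and 0.585 over all genes. Ttll6, the protein-coding gene on one side of the cluster, reached 0.912 and Skap1, on the other side, 0.0407. Hoxb7, a trunk gene and the second of the cluster by level, held 1 and 2 sense UMIs in AGTuC, 2, 0, 1 and 1 in inAGTuC, and 14 over all scGRO-seq batches. These libraries overlapped.

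Hoxd1, an anterior gene at the end of the Hoxd cluster (chr2:74762980-74765142, plus strand), held 6 and 13 sense UMIs in AGTuC, or 2.69 and 2.73 UPM. The inAGTuC libraries held 0, 1, 1 and 0, and 1 of the 10 scGRO-seq batches held 2 while the others were at 0. AGTuC lay above every other library, with a ratio of pooled levels to inAGTuC of 5.93 (exact 95% counting interval 1.43 to 52.5). Of the 19 AGTuC molecules 17 lay in the first 500 bp, and 13 stood within a single 50-bp bin at 10 positions, just after the window printed above. Hoxd8, the second of the cluster by AGTuC level, held 1 and 3, against 0, 2, 1 and 1 in inAGTuC, and the remaining Hoxd genes held 0 to 2 each.

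Hoxa and Hoxc held few sense molecules in AGTuC. Hoxa7 held 0 and 2 UMIs in AGTuC and 0, 1, 0 and 1 in inAGTuC. In Hoxc, Hoxc4 held 2 and 2 UMIs in AGTuC and 1 in each inAGTuC library. Hoxc13, which acts in hair and nails, held 2 and 5, against 0, 1, 4 and 3. For these 3 genes the libraries of both assays overlapped or differed by a few UMIs. Hotair, the long non-coding RNA gene of the Hoxc cluster, was at 0 in AGTuC and held 1 sense UMI in inAGTuC and 5 in scGRO-seq.

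Sense signal was tested between AGTuC and inAGTuC in the 23 of 39 genes with enough UMIs, and 11 were called at an adjusted p of 0.05 (negative binomial quasi-likelihood test moderated with limma). Higher in AGTuC were 2, Hoxb9 and Hoxd1, while 23.3% of the 20322 genes tested were called higher. Lower in AGTuC were 9 (Hoxa3, Hoxa6, Hoxb1, Hoxb3, Hoxc9, Hoxc10, Hoxd3, Hoxd4 and Hoxd11), while 19.6% of all genes tested were called lower. Hoxd4 lies within the span of Hoxd3 and Hoxa6 within that of Hoxa3. Their molecules also count for the longer gene, so these calls are not separate. Hoxb9 differed by 4.65 on the log2 scale (SE 0.62, limma-moderated adjusted p = 2.28e-05) and was called under each of the 30 alternatives. Hoxd1 differed by 2.43 (SE 1.14, limma-moderated adjusted p = 0.049) and was called under 13 of 29. Hoxd1 reached the minimum of 10 UMIs only through AGTuC, and with no minimum its limma-moderated adjusted p was 0.0563. Hoxa6, with 0, 8 and 3 UMIs in AGTuC, inAGTuC and scGRO-seq, reached it only through the other assays and stayed called with no minimum. Hoxb1, with 0, 6 and 6, also reached it only with its inAGTuC UMIs. The minimum thus takes in genes that are high in 1 group, so the counts of members called are descriptions. The count of called members fell to 1 without AGTuC replicate 2, to 5 without AGTuC replicate 1 and to 5 without inAGTuC replicate 3.

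Apart from Hoxa3, the genes called lower were at or near 0 in AGTuC. Hoxb3 and Hoxd3, both anterior genes active in the hindbrain and neck, each held 1 sense UMI in all of AGTuC. Hoxb3 held 2, 3, 18 and 5 in inAGTuC, so most of its molecules came from replicate 3, and the pooled level was 44.9 times that of AGTuC (exact 95% counting interval 7.42 to 1834). Hoxd3 held 3, 1, 9 and 7, and its pooled level was 32.04 times higher in inAGTuC (5.12 to 1328). The limma-moderated adjusted p was 0.00603 for Hoxb3 and 0.00226 for Hoxd3, and neither call held without AGTuC replicate 2 (0.111 and 0.0729). In scGRO-seq, Hoxb3 held 62 and Hoxd3 held 63 UMIs over the 10 batches, 0 to 19.8 and 0 to 10.97 UPM.

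Hoxa3, whose longest transcript spans Hoxa4, Hoxa5 and Hoxa6, held 5 and 11 sense UMIs in AGTuC, or 2.24 and 2.31 UPM. In inAGTuC it held 4, 7, 21 and 6, or 6.42, 8.52, 14.4 and 4.12 UPM, all above both AGTuC libraries. It fell by 2.05 on the log2 scale in AGTuC (SE 0.67, limma-moderated adjusted p = 0.0188). The call was lost without either AGTuC replicate, without inAGTuC replicate 3 and with all scGRO-seq batches, and it held in the other 25 of 29 alternatives. Hoxa6, Hoxb1, Hoxc10 and Hoxd4 were at 0 in both AGTuC libraries. In inAGTuC, Hoxb1 held 1, 1, 2 and 2, Hoxa6 0, 2, 6 and 0, Hoxc10 0, 3, 1 and 3, and Hoxd4 0, 1, 4 and 3. Of these, Hoxb1 was the one found in every inAGTuC library. Hoxc9 held 0 and 1 sense UMIs in AGTuC and 0, 0, 5 and 2 in inAGTuC. Hoxd11, a posterior gene active in the limb, held 0 and 1 in AGTuC and 1, 0, 7 and 1 in inAGTuC. For both, some inAGTuC libraries overlapped with AGTuC, and replicate 3 held most of the inAGTuC molecules.

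**Figure D3:**
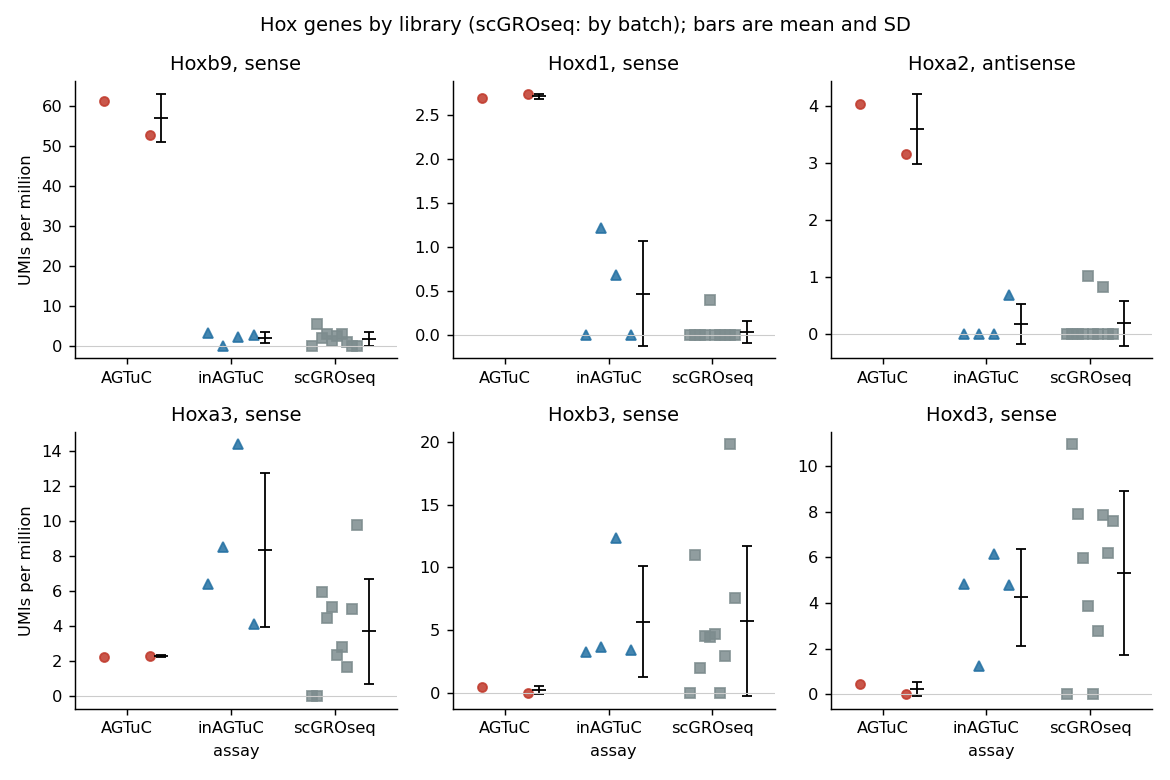
UPM of 6 Hox genes, 1 point per library (per batch for scGRO-seq), with mean and SD beside the points. AGTuC is above all other points for Hoxb9, Hoxd1 and Hoxa2 antisense, and below the inAGTuC points for Hoxa3, Hoxb3 and Hoxd3.

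Apart from Hoxb9, the Hox genes were compared with olfactory receptor genes, which ES cells should lack and which were also lower in AGTuC. Without Hoxb9, the Hox genes held 0.0549 sense UPM per kb in AGTuC, 0.213 in inAGTuC and 0.173 in scGRO-seq. The 1110 olfactory receptor genes, which serve smell neurons, held 0.00490, 0.0506 and 0.0429, while all genes together held 0.585, 0.450 and 0.445. Hox genes thus stood 11.2 times above olfactory receptor genes in AGTuC, 4.21 times in inAGTuC and 4.02 times in scGRO-seq. They stood 10.6, 2.11 and 2.58 times below all genes. Not every list of genes of other lineages was lower in AGTuC: of 7 neural markers 5 were tested, Sox1, Tubb3 and Olig2 were called higher and Pax6 lower, and of 6 endoderm markers, all tested, none was called. Of 9 fibroblast or feeder markers, all tested, 5 were called lower and none higher. Of 6 mesoderm markers 5 were tested, 2 were lower and none higher. Of the 1110 olfactory receptor genes 20 were tested, 7 were lower and 1 higher. These counts stand against 23.3% of all genes tested called higher and 19.6% called lower. Sense signal in olfactory receptor genes was thus also higher in inAGTuC and scGRO-seq than in AGTuC. Its part in the lower calls of Hox genes was not tested.

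**Figure D4:**
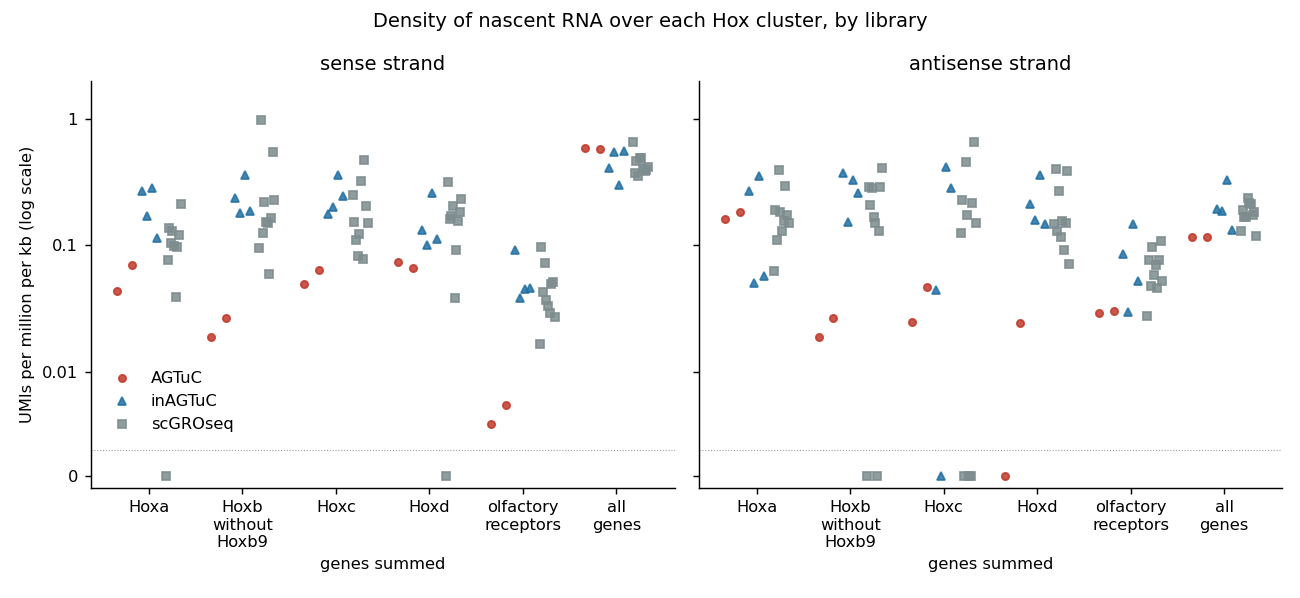
Density of UMIs (UPM per kb, log scale) summed over each Hox cluster (Hoxb without Hoxb9), over olfactory receptor genes and over all genes, 1 point per library or batch, sense on the left and antisense on the right, with values of 0 under the dotted line. On the sense strand, with Hoxb9 left out, the AGTuC circles lie under every inAGTuC point in each cluster and in olfactory receptor genes, and above every inAGTuC point over all genes.

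Signal on the strand opposite to the genes differed between clusters in AGTuC. In Hoxa, 89 of 120 UMIs (74.2%, Wilson 95% interval 65.7 to 81.2%) were antisense, whereas the share was 4.35% in Hoxb, where Hoxb9 held most sense signal (8 of 16 UMIs without Hoxb9), 10 of 25 UMIs in Hoxc and 19.4% in Hoxd (7 of 36). Over all genes 16.6% of AGTuC molecules were antisense. In inAGTuC the share was 47.5% to 58.7% by cluster, and in scGRO-seq 46.7% to 63.4%, against 32.6% and 30.8% over all genes. Without inAGTuC replicate 3 the inAGTuC share was 38.2% in Hoxa, 54.2% in Hoxb, 16 of 39 UMIs in Hoxc and 59.2% in Hoxd, against 23.5% over all genes. In olfactory receptor genes it was 85.8% in AGTuC, 62.6% in inAGTuC (49.7% without replicate 3) and 60.9% in scGRO-seq.

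The antisense molecules of Hoxa lay mainly in Hoxa3 (51 UMIs), Hoxa2 (24) and Hoxa7 (11). Hoxa2, which patterns the second branchial arch, held 9 and 15 antisense UMIs in AGTuC, 0, 0, 0 and 1 in inAGTuC, and was above 0 in 2 of 10 scGRO-seq batches. The 24 molecules stood at 22 positions. With 1 antisense UMI in inAGTuC and 7 in scGRO-seq, Hoxa2 reached the minimum of 10 UMIs only through AGTuC. Its pooled antisense level was 15.0 times that of inAGTuC (exact 95% counting interval 2.44 to 616), and the fit gave 3.83 on the log2 scale (SE 1.64, limma-moderated adjusted p = 0.0151), a call lost without either AGTuC replicate. Hoxa7 held 1 and 10 antisense UMIs in AGTuC and 0, 0, 3 and 0 in inAGTuC, so the AGTuC libraries differed widely.

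Next to Hoxa2 and on its antisense strand lie Hotairm1 and Hotairm2, 2 non-coding RNA genes that run opposite to the Hoxa genes at one end of the cluster. Their span held 1.51 plus-strand UPM per kb in AGTuC, 0.761 in inAGTuC and 0.538 in scGRO-seq. By library the span held 6.27 and 8.41 UPM in AGTuC and 4.81, 0, 3.42 and 6.18 in inAGTuC, while the scGRO-seq batches reached 12.4, so the assays overlapped. Hotairm1 was not called (log2 difference 0.47, SE 0.84, limma-moderated adjusted p = 0.666). Hotairm2 was called higher in AGTuC (log2 difference 3.22, SE 1.54, limma-moderated adjusted p = 0.032). It held 3 and 14 sense UMIs in AGTuC, 0, 0, 0 and 1 in inAGTuC and 0 in scGRO-seq. Hotairm2 thus reached the minimum of 10 UMIs only through AGTuC. From the Hotairm1 end to Hoxa3, across Hoxa2, the values were 0.712, 0.195 and 0.159. Molecules that began in the Hotairm genes and molecules that began after them cannot be told apart. Hoxa3, whose 51 antisense AGTuC molecules split into 16 and 35, held 7.17 and 7.36 UPM, within the range of inAGTuC (9.63, 3.65, 16.4 and 2.06). It differed by -0.33 on the log2 scale (SE 0.81, limma-moderated adjusted p = 0.75). Of these molecules 20 stood in 1 50-bp bin at 12 positions between Hoxa3's start and Hoxa4, within the non-coding gene LOC115490409, which runs opposite to Hoxa3.

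Beside the Hoxa cluster, Halr1 was transcribed toward it. It was added after its values were seen and lies outside the span of the Hox genes. Halr1 held 25.99 and 33.01 UPM in AGTuC, 4.81, 18.3, 6.84 and 0.687 in inAGTuC, and 0 to 40.3 with a median of 7.27 in scGRO-seq. The 8 kb after its end held 41.7 and 41.8 in AGTuC, against 3.21, 3.65, 7.52 and 0.687. Pooled, those 8 kb reached 5.22 UPM per kb in AGTuC.

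**Figure D5:**
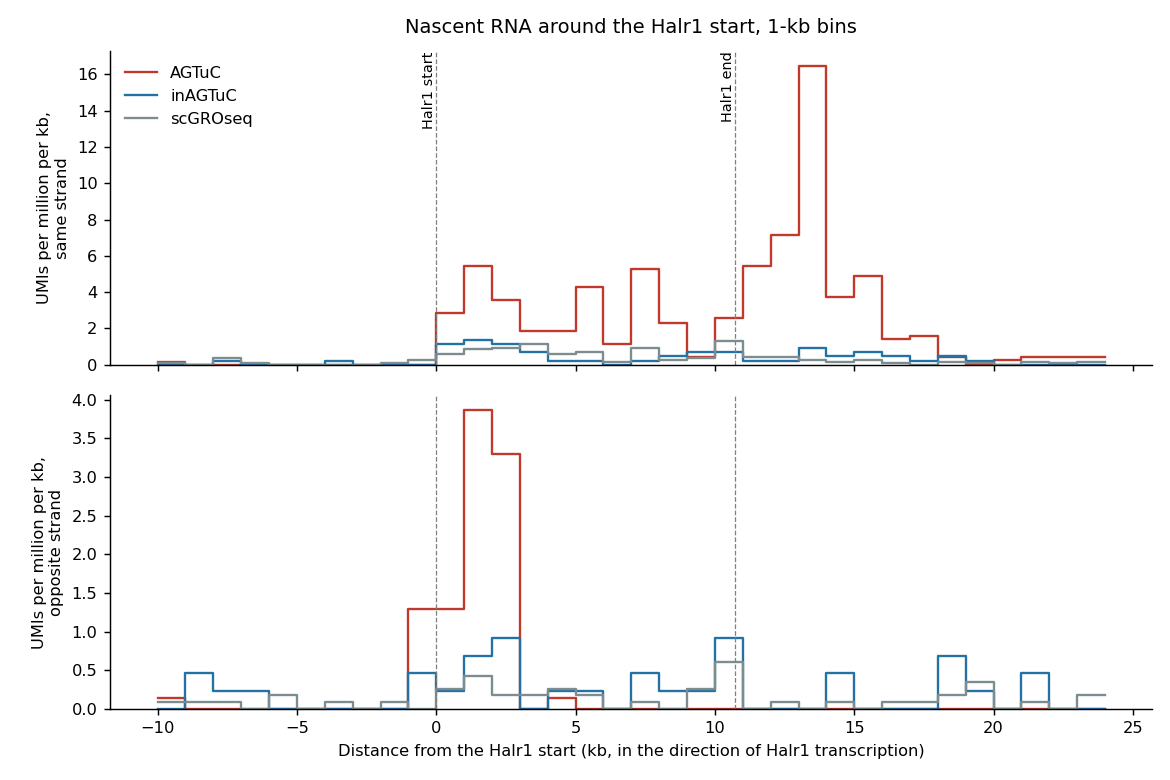
Nascent RNA in 1-kb bins (UPM per kb, pooled over the libraries of an assay) by distance in kb from the Halr1 start, on the strand of Halr1 (above) and the opposite strand (below). AGTuC is low before the start, reaches 16.5 in the bin 13 to 14 kb after it, and has molecules of the opposite strand from 1 kb before to 3 kb after it.

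Antisense signal was tested in 24 members between AGTuC and inAGTuC. Hoxa2 alone was higher, against 7.04% of the 20032 genes tested. As given above, Hoxa2 reached the minimum of UMIs only through AGTuC, the assay in which it was high. Its call beside that share is therefore a description only. Lower were 9 (Hoxa6, Hoxa10, Hoxb3, Hoxb4, Hoxc10, Hoxd3, Hoxd4, Hoxd11 and Hoxd12), against 44.8% of all genes tested. Among them, Hoxa6 held 0, 7 and 5 antisense UMIs in AGTuC, inAGTuC and scGRO-seq, Hoxb4 0, 4 and 9, and Hoxd12 0, 5 and 5. These members reached the minimum only with their inAGTuC UMIs, so their calls are descriptions too. Hoxb3 held 0 and 1 antisense UMIs in AGTuC against 0, 3, 13 and 12 in inAGTuC. Hoxd3 held 0 and 2 against 6, 5, 19 and 6. Both had their highest count in replicate 3. Hoxa10 held 0 and 1 against 2, 0, 7 and 0, and Hoxd4 0 and 1 against 2, 1, 5 and 0. The Hoxd4 molecules are also among those of Hoxd3, within whose span Hoxd4 lies. Hoxa6, Hoxb4, Hoxc10, Hoxd11 and Hoxd12 were at 0 in both AGTuC libraries. In inAGTuC, Hoxa6 held 2, 1, 4 and 0, Hoxb4 0, 0, 3 and 1, Hoxc10 0, 0, 3 and 6, Hoxd11 1, 1, 2 and 2, and Hoxd12 0, 0, 2 and 3. Of these 5, only Hoxd11 was found in every inAGTuC library. Without AGTuC replicate 1, without AGTuC replicate 2 and without inAGTuC replicate 3 the called members numbered 2, 2 and 6.

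Molecules near the start were counted apart from those in the gene body. In AGTuC, 42.7% of the promoter and body UMIs of the Hox genes (Wilson 95% interval 38.3 to 47.2%) lay in the first 500 bp, a region that made up 9.46% of the length. In inAGTuC the share was 13.6% (9.49 to 19.02%) and in scGRO-seq 15.3% (12.1 to 19.03%). Over all genes, where the first 500 bp made up 1.18% of the length, the shares were 21.7%, 4.02% and 3.40%. Without Hoxb9, which held 159 promoter and 226 body UMIs, the AGTuC share was 49.4% (38.8 to 60.05%, 40 of 81 UMIs). By cluster it was 15.6% in Hoxa, 10 of 14 UMIs in Hoxc and 21 of 28 UMIs in Hoxd, most of them from Hoxd1.

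A change of promoter over body between AGTuC and inAGTuC could be tested in 18 members, and 0 were called, while 45.2% of the 17752 genes tested were. Of the members, 1 had an unadjusted p under 0.05 in this quasi-binomial test moderated with limma, and limma voom called 3, Hoxb7, Hoxc4 and Hoxd1. Hoxb9 differed by 1.08 on the log2 scale (SE 1.44, limma-moderated adjusted p = 0.588). In the gene body alone, 16 members were tested. Hoxb9 was higher, by 4.47 on the log2 scale (SE 0.72, limma-moderated adjusted p = 9.88e-05), against 9.43% of the 19369 genes tested. Hoxa3, Hoxb3, Hoxd3 and Hoxd4 were lower, against 19.5%, and the Hoxd4 molecules are also among those of Hoxd3. Without AGTuC replicate 2 the body fit called 1 member and without inAGTuC replicate 3 it called 2.

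Single nuclei and pools of intact nuclei were not told apart at the Hox genes. Between scGRO-seq and inAGTuC no member was called for sense signal (23 tested, 0.00492% of all genes called), antisense signal (24 tested, 0.015% of all genes called), the gene body (16 tested, 0.00516%) or promoter over body (22 tested, 0% of 19747 genes). Members with an unadjusted p under 0.05 numbered 1, 0, 0 and 0 with the limma-moderated test, and limma voom also called none, with 0, 2, 1 and 1 under 0.05. A fit with batch as a block was possible in the 2 experiments with UMIs of both assays after the filters, Exp208 and Exp261, the latter from outside the 10 batches. It could test only 3, 5, 3 and 2 members in the same order, and none was called. The scGRO-seq batches spread widely, from 13.4 to 82.3 sense UPM over the 4 clusters (mean 38.5 ± 19.6, SD, n = 10), against 46.6 ± 15.8 in inAGTuC (n = 4) and 68.5 ± 4.45 in AGTuC (n = 2). Most of the AGTuC sum was Hoxb9. Without Hoxb9 the values were 36.7 ± 18.9 in scGRO-seq, 44.6 ± 15.5 in inAGTuC and 11.5 ± 1.63 in AGTuC.

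In single cells a Hox molecule was a rare event. A sense UMI was found in 378 of 2512 cells (15.0%, Wilson 95% interval 13.7 to 16.5%), and 328 of them held only 1. These cells had a median of 4806 UMIs, against 3275 in the other cells. By batch the share ran from 2.91% to 18.9%, and the batch at the low end also had the lowest median depth, 1864 UMIs a cell. By cluster, 95 cells held a Hoxa UMI, 122 a Hoxb, 85 a Hoxc and 119 a Hoxd UMI, and 38 cells held UMIs of more than 1 cluster. Hoxb9 was found in 14 cells and Gm53 in 85. Antisense UMIs of Hox genes were found in 423 cells (16.8%) and sense UMIs of the olfactory receptor genes, which ES cells should lack, in 612 (24.4%) over 1636 kb against 221.7 kb of Hox genes. Per kb the pooled Hox level without Hoxb9 was 4.02 times that of the olfactory receptors, as given above.

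Some scGRO-seq molecules were stacked at single places. Of the 113 antisense UMIs of Hoxa3, 22 stood in 1 50-bp bin that also lies in Hoxa4, at 5 positions in 22 cells of 5 batches, and they made up 22 of the 29 antisense UMIs of Hoxa4. Near Hoxb7, 17 sense UMIs at 5 positions came from 15 cells of 1 batch. In Hoxc5, 14 of its 19 sense UMIs stood in 1 bin at 4 positions. In front of Hoxd1, 20 sense UMIs stood within 50 bp at 10 positions in 19 cells of 2 batches. In Hoxc4, 11 of its 13 sense UMIs stood in 1 bin at 2 positions in 1 batch, and in Hoxc10, 12 of 21 at 2 positions. The scGRO-seq levels of Hoxa4 antisense and of Hoxc4, Hoxc5 and Hoxc10 sense therefore rest mostly on 1 bin each.

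Genes known to control Hox clusters were read from fixed lists. Of 20 Polycomb genes none was at 0 in any assay, and the median level in AGTuC was 3.11 UPM per kb, against 0.0386 for the Hox genes. The counts of called genes in the lists below stand against 23.3% of all genes called higher and 19.6% called lower. Of the 20, 4 were called higher in AGTuC than in inAGTuC (Aebp2, Ring1, Cbx2 and Cbx7), a share near that of all genes, and none lower. Cbx2, a PRC1 subunit, rose by 2.79 on the log2 scale (SE 0.48, limma-moderated adjusted p = 0.000181). Of 7 MLL and trithorax genes, with a median of 3.41, Wdr5, Ash2l and Dpy30 were higher and none was lower. Of 9 cofactors that bind DNA with Hox proteins, Pknox1 was higher, and Meis1 and Meis2 were among those lower.

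Of 9 inducers of Hox genes, 3 were higher and 3 lower, against the same 23.3% and 19.6% of all genes: the retinoic acid receptors Rara and Rarg and the homeobox gene Cdx1 were higher in AGTuC, and Cdx2, Rarb and the retinoic acid-making enzyme Aldh1a2 were lower. Some inducers were near 0 in AGTuC, with 2 sense UMIs for Cdx2, 1 for Cdx4, and 0.00879 and 0.0142 UPM per kb for Rarb and Aldh1a2. Rarg rose by 2.11 on the log2 scale (SE 0.41, limma-moderated adjusted p = 0.000523) and stood at 5.44 UPM per kb in AGTuC. Of 11 ParaHox and related homeobox genes, 9 were tested, and Gbx2 and En2 were higher (22.2%, near the 23.3% of all genes) and none was lower. Gbx2, which later patterns the border of midbrain and hindbrain, stood at 13.9 UPM per kb in AGTuC against 0.998 in inAGTuC. Evx1 and Evx2, homeobox genes that border the Hoxa and Hoxd clusters, held 1 and 3 sense UMIs in AGTuC.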

How the data were processed

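Per the labels and the study's methods, the authors trimmed reads with cutadapt and Flexbar, removed ribosomal reads, aligned to mm10 with Bowtie2 and removed duplicates with UMI-tools; versions of these tools are not given in the sources used here. The deposited lists hold 1 line per molecule with a mapping quality score (whole numbers from the aligner) and no counts table, so UMIs were counted here from those lines, each at its RNA 3′ end. Molecules found in more than 1 list (0.245 to 0.511% in AGTuC, 4.67 to 23.5% in inAGTuC, up to 67.6% in the scGRO-seq lists of the batches used) were left out, and 1 scGRO-seq list was set aside since 99.7% of its reads were also in an inAGTuC list. Cells had at least 1000 UMIs and 750 genes, in plates of at least 24 cells, and came from the 10 batches that a figure of the study names. Plates of 4 other batches (Exp179, Exp256, Exp261 and Exp263b) also passed these filters, with 47 to 83 cells each, and entered only in alternatives. The promoter was the first 500 bp and the body the rest up to 500 bp before the end. Overlapping Hox genes each received a shared molecule, and cluster sums counted it once.

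The 8 fits ran over all genes with at least 10 UMIs, with all 3 assays, total UMIs scaled by TMM factors, a negative binomial quasi-likelihood test moderated with limma 3.58.1 (R 4.3.3) and Benjamini-Hochberg adjustment over all genes tested; promoter over body used a quasi-binomial test with the library as a block. The test was checked on data simulated with the same spread for every gene and no batch differences. That check cannot show how the calls hold in these libraries. The planned count package was replaced by this test, run on the UMI counts made here. The limma voom test stood in as an alternative, added after seeing the data. Labels do not say that replicates were separate cultures, so p-values measure the spread between these libraries, which may be technical. That spread is 1 estimate shared by all 3 assays. It rests mostly on the 10 scGRO-seq batches, also where AGTuC is compared with inAGTuC. Replicates 1 and 2 of inAGTuC came from 1 experiment, Exp208. The Hox genes and the gene lists were chosen with earlier results of these data known. Genes given by library were, per cluster, the 2 with the most AGTuC sense signal per kb, the members called in any fit and the 2 with the most antisense signal, besides genes within and beside the clusters and the listed regulators. The values of 1 Hox gene and 1 cofactor gene are not reported here.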

Additional observations from a re-analysis of the deposited data

Results flagged for a closer look

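Of 42 groups of libraries or batches examined for a value far from the others, 6 had one. The rule is set for about 1 in 20 by chance in separate groups of normally spread values. Many groups here held counts near 0 and some shared molecules, so that rate does not apply and no excess is shown. In the inAGTuC libraries, Hoxb3 sense was 12.3 UPM in replicate 3, against a next value of 3.65. In the scGRO-seq batches, Hoxb sense reached 52.1 in batch Exp160 (next 26.03), and Hoxd1 sense reached 0.406 in batch Exp236, with the others at 0. That Hoxd1 value rests on 2 UMIs. Batch Exp156, the smallest, stood apart 3 times: at Gm53 with 85.2 UPM (next 46.6), between the Gm53 end and the Hoxb9 start with 40.3 (next 13.9), and at Halr1 with 40.3 (next 19.5).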

How the results depend on the processing

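Hoxb9 was higher in AGTuC under every alternative run, by 4.26 to 4.90 on the log2 scale for the whole gene (30 alternatives) and by 4.09 to 4.88 in the gene body. Counts of called members moved more, and beyond the number tested the cause of each move was not tested. For sense signal AGTuC called 11 of 23 members tested, and 2 of 2 with the filterByExpr rule, 6 of 8 with only the 2 assays compared, 6 of 26 with all deposited reads and 6 of 24 with all scGRO-seq batches, so the first pair called fewer because fewer were tested. Leaving out 1 replicate or batch gave 1 to 11. For antisense signal it called 10 of 24, and 16 of 24 with limma voom, 1 of 2 with the filterByExpr rule, 5 of 9 with only the 2 assays compared and 6 of 19 at a mapping quality of at least 10, and 2 to 13 with 1 library left out. In the body it called 5 of 16, and 11 of 16 with voom, 2 of 2 with the filterByExpr rule and 3 of 15 with positions in more than 1 gene left out, and 1 to 6 with 1 library left out. Promoter over body in AGTuC called 0, and 3 with voom, and 0 to 1 with 1 library left out. The 4 comparisons of scGRO-seq with inAGTuC called 0 members under every alternative run. Hoxa3 antisense, not called, turned from -0.33 to 0.11 with voom and ran from -0.68 to 0.65 with 1 library left out, the latter without inAGTuC replicate 3. Over all genes the AGTuC calls ran from 3213 to 10379 (sense, 8712 in the report), 4238 to 11871 (antisense, 10379) and 1367 to 7124 (body, 5602). The summed Hox sense level was 65.4 and 71.7 UPM in the 2 AGTuC libraries. With cells chosen by UMIs alone, 12.8% held a Hox sense UMI. DESeq2 was not run. No paired analysis was possible because the labels give no replicate numbers that the assays share. The experiment as a block could be fitted for scGRO-seq against inAGTuC, and over all genes it called 38 for sense signal and 35 in the body, against 1 and 1 in the comparison of all 10 batches. That fit also used other libraries and a preset value for part of the spread, which the main fit estimated. The block, the libraries and that setting therefore cannot be told apart.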
